A study of Mus musculus with 12 samples.

Results

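Whole lungs of ventilated mice lacking Zmpste24 were compared with whole lungs of ventilated wild type mice. The comparison rests on 6 of the 12 arrays of the series, 3 labelled as ventilated lungs of Zmpste24-deficient mice and 3 as ventilated lungs of wild type mice, and covers 22180 genes. Every difference is the mean log2 expression in ventilated Zmpste24-/- lungs minus that in ventilated wild type lungs. Where 3 values are set against 3, those of wild type arrays 1 to 3 come first and those of Zmpste24-/- arrays 1 to 3 second, in ventilated lungs unless intact lungs are named. The mice of both groups were female and 10 weeks old. They were ventilated for 2.5 hours at an inspiratory pressure of 15 cmH2O and 100 breaths per minute, without end-expiratory pressure and with an inspired oxygen fraction of 0.21. The other 6 arrays came from intact lungs of female mice of the same age, 3 wild type and 3 Zmpste24-/-, and serve as the unventilated reference for the same genotype difference. Each array holds RNA of 1 mouse (labelled a biological replicate), taken from whole lung, so every group has 3 arrays. Mouse strain, allele and the time of day of sampling are not stated in the labels.

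Zmpste24 is the zinc metalloprotease that makes the last cuts in the maturation of lamin A, removing the farnesylated tail of prelamin A. Without it, farnesylated prelamin A stays at the nuclear envelope, and the mice develop features of premature ageing. The nuclear lamina carries mechanical load from the cytoskeleton to the nucleus, and positive pressure ventilation stretches the lung with each breath. Stretch of lung tissue is known to switch on immediate early genes, heat shock genes, cytokines and growth factor signalling within hours.

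The targeted gene followed the labels. Zmpste24 stood at 8.5, 9.28 and 8.91 in the ventilated wild type lungs and at 5.01, 5.73 and 5.43 in the ventilated Zmpste24-/- lungs, a difference of -3.51 ± 0.22 (SE of the fit). The Zmpste24-/- values lay near the array medians, which were 5.42 in each of the 3 ventilated wild type lungs and 5.35 to 5.38 in the 3 ventilated Zmpste24-/- lungs. Lmna, which encodes lamins A and C, was at 7.87, 7.69 and 7.79 against 8.09, 7.99 and 8.11, a difference of 0.28 ± 0.11 that did not pass the test (limma adjusted p = 0.144). Of 17 measured genes of the lamina and of prelamin A processing, 3 passed, 1 higher and 2 lower (5.88% and 11.8%). Over all genes 4.72% were higher and 6.08% lower. Lbr, the lamin B receptor of the inner nuclear membrane, was higher by 0.37 ± 0.09 (limma adjusted p = 0.0153), but not without Zmpste24-/- ventilated array 3 (adjusted p = 0.0719) or wild type ventilated array 3 (adjusted p = 0.057). Syne1, which encodes the giant linker protein nesprin-1, was at 10.84, 10.82 and 10.94 against 10.17, 10.24 and 10.48, a lower level with a difference of -0.57 ± 0.10. The third was Zmpste24 itself, the targeted gene, whose lower call was given by the design and says nothing about the list. Genes that define lung were high in all 6 arrays, with the surfactant gene Sftpc between 13.10 and 13.25 and the alveolar type 1 gene Ager between 12.11 and 12.59.

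In the comparison of ventilated lungs 2395 of 22180 genes passed an adjusted p of 0.05 (limma with Benjamini-Hochberg adjustment over all genes), 10.8% of those tested. Of these, 1046 were higher in Zmpste24-/- lungs (4.72% of all genes) and 1349 lower (6.08%). The single array values of the genotypes did not overlap in 2365 of the 2395, against 30.3% of all genes. The difference was at least 2-fold in 191 of them, 93 higher and 98 lower. With the median of each array subtracted the split turned to 1528 higher and 973 lower, and with quantile normalization it was 1186 and 1215. The count fell to 1369 without wild type ventilated array 2, to 1426 without Zmpste24-/- ventilated array 3 and to 1464 without wild type ventilated array 3. The higher genes numbered 628, 634 and 656 without Zmpste24-/- ventilated array 3, wild type ventilated array 2 and wild type ventilated array 3. The lower genes numbered 798, 735 and 808 without the same arrays. Pearson's r over the probes of a pair of arrays, a description since probes are not replicates, was 0.978 to 0.985 between ventilated arrays of the different genotypes and 0.986 to 0.992 between arrays of one group.

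**Figure D1:**
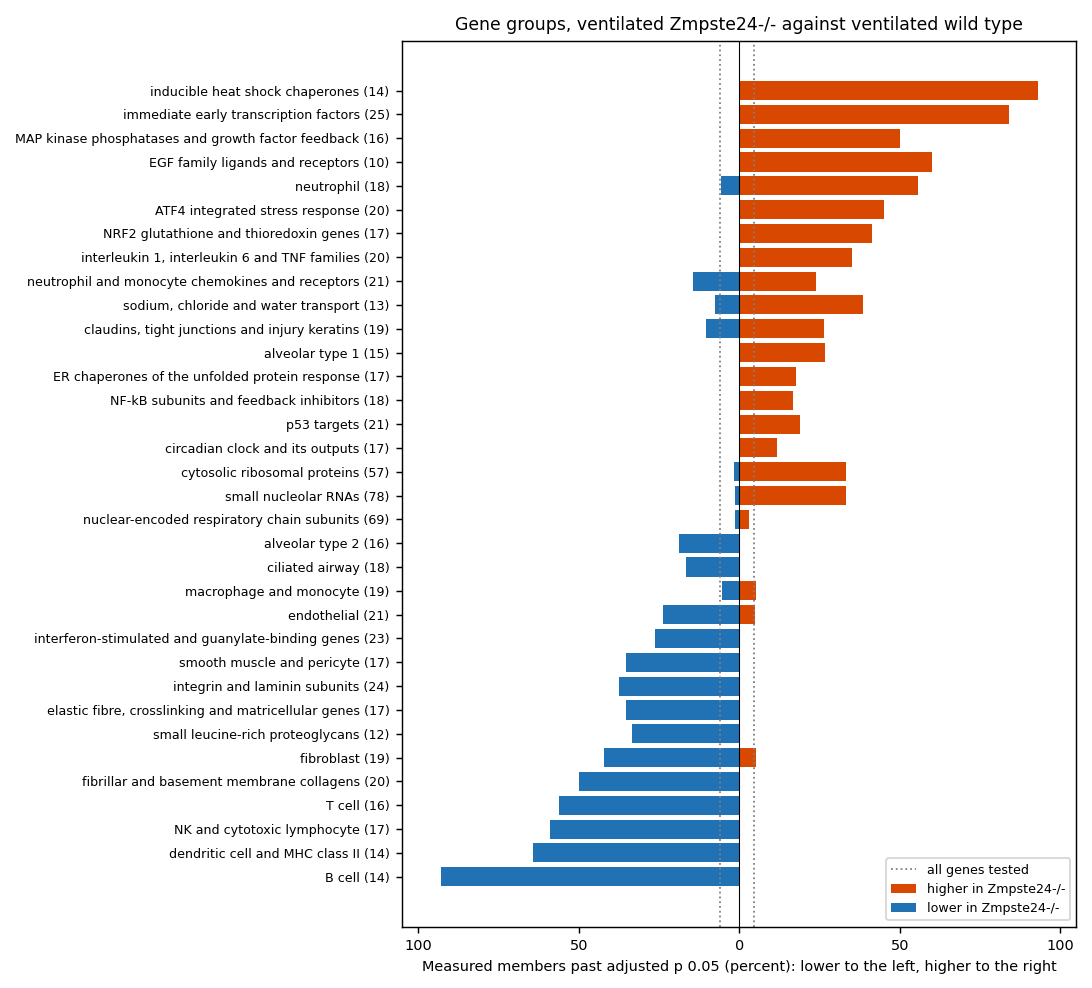
Share of measured members of each gene group (number in brackets) that passed an adjusted p of 0.05 in ventilated Zmpste24-/- against ventilated wild type lungs, in percent, with genes higher in Zmpste24-/- to the right and genes lower to the left. Dotted lines mark the shares over all 22180 genes, 4.72% higher and 6.08% lower; heat shock chaperones (92.9%) and immediate early factors (84%) reach farthest to the right and B cell genes (92.9%) farthest to the left.

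Inducible heat shock chaperones were higher in the ventilated lungs lacking Zmpste24. These proteins hold and refold damaged proteins, and their genes are switched on by heat shock factor 1. Of 14 measured members 13 were higher and none lower (92.9%, against 4.72% of all genes), with a median difference of 1.07 where the median over all genes was 0.005. Leaving out any one of the 12 arrays left 12 or 13 of them higher.

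The inducible Hsp70 is encoded by Hspa1a and Hspa1b. Hspa1b stood at 10.69, 8.11 and 10.68 in the wild type and at 12.31, 11.91 and 12.37 in the Zmpste24-/- ventilated lungs, a difference of 2.37 ± 0.52 (limma adjusted p = 0.0106). Wild type ventilated array 2 was the low one, and without it the difference of Hspa1b was 1.51. Even the higher wild type arrays stayed below all 3 of the others, as was required of every gene ranked by the size of its change. The call of Hspa1b was lost under a trended and robust variance model (adjusted p = 0.0583). Hspa1a was at 11.08, 9.14 and 11.15 against 12.75, 12.35 and 12.89, a difference of 2.21 ± 0.40. Hspa1a and Hspa1b encode near-identical messages, so their probes may share signal. Both had also been low in every intact lung, between 5.49 and 7.12 for Hspa1b and between 7.14 and 8.15 for Hspa1a.

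Dnajb1, a co-chaperone of Hsp70, was at 8.60, 7.63 and 8.43 against 10.70, 10.03 and 10.67, 4.76-fold higher (difference 2.25 ± 0.22, limma adjusted p = 8.17e-05). Hsph1, the Hsp110 exchange factor, was at 8.57, 7.42 and 8.33 against 10.05, 9.64 and 10.67, 4.03-fold higher. Hspb1, a small heat shock protein that binds actin and intermediate filaments, was at 8.14, 7.10 and 7.47 against 9.09, 8.77 and 8.99, and Hspe1, the mitochondrial Hsp10, at 6.01, 5.91 and 6.06 against 7.28, 6.79 and 7.44. In each of these 4 genes the lowest Zmpste24-/- array lay above the highest wild type array. The ranking of the largest changes required this of Dnajb1 and Hsph1. Hsp90aa1, Chordc1, Hspd1, Hspb8, Hspa8 and Bag3 were higher by between 0.64 and 1.14. Hspa4l had the smallest call, 0.42 ± 0.13, and lost it without Zmpste24-/- ventilated array 3 (adjusted p = 0.18) and 6 other single arrays (adjusted p between 0.0539 and 0.176). Dnajb4 did not pass, with a difference of 0.14 ± 0.13.

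Promoters of these members often carried the heat shock element searched for, GAANNTTC, on either strand within 250 bases before to 50 after the gene's start (RefSeq, GRCm38.p6). It was in 9 of the 11 higher chaperone genes with a promoter in the table. Over the whole table it was in 2442 of 27025 genes (9.04%) and in 2582 of 32851 promoters (7.86%). Dnajb1 and Hspa4l held none in this window, and Hspa8 and Hsp90aa1 had no entry. A match of letters is a description and no evidence of binding. Promoters of 3 members are shown, an Hsp70, a small heat shock protein and an Hsp90 partner, to show 1 or 2 matches at different distances from the start, with the matches in capitals.
Hspa1b, chr17:34959189-34959488, minus strand: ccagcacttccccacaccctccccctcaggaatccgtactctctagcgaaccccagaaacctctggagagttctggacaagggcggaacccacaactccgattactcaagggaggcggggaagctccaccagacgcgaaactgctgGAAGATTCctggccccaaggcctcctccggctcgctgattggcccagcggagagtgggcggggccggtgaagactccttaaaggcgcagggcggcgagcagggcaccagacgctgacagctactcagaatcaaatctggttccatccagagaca
Hspb1, chr5:135887669-135887968, plus strand: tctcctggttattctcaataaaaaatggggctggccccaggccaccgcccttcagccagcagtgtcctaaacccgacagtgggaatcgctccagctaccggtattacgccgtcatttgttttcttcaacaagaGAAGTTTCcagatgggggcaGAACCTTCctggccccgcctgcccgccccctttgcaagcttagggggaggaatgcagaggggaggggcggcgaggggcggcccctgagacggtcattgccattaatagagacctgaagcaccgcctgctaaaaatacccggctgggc
Chordc1, chr9:18292017-18292316, plus strand: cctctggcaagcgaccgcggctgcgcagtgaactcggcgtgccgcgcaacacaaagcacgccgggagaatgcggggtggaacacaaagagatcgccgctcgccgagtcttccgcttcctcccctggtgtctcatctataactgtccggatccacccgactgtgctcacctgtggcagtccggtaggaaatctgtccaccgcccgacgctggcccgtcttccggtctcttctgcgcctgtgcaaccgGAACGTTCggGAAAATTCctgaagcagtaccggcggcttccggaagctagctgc

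Immediate early transcription factors were higher as well. They are transcribed within minutes of a stimulus and without new protein synthesis. Of 25 measured members 21 were higher and none lower (84%), with a median difference of 0.97, and 19 to 22 were higher when single arrays were left out. Wild type ventilated array 2 had the lowest mean over the group among the ventilated lungs, as it had over the heat shock chaperones; its part in these differences beyond the counts without it was not tested.

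The AP-1 genes Fosb, Fos, Junb and Jun encode partners that bind DNA as pairs. Fosb stood at 7.12, 6.6 and 7.14 in the wild type and at 9.94, 9.11 and 10.24 in the Zmpste24-/- ventilated lungs, 6.99-fold higher (difference 2.81 ± 0.36, limma adjusted p = 0.000451). Fos was at 8.52, 7.29 and 7.85 against 10.41, 9.25 and 10.15, 4.15-fold higher. Junb was higher by 1.47 ± 0.25 and Jun by 1.05 ± 0.17, with Jun at 10.55, 10.37 and 10.36 against 11.81, 11.04 and 11.57. Atf3, a stress-induced partner of the Jun proteins, was at 10.11, 9.16 and 9.95 against 11.80, 11.22 and 11.71, 3.56-fold higher. None of these genes had overlapping genotypes in ventilated lungs, which the ranking of the largest changes required of Fosb, Fos and Atf3.

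The nuclear receptor Nr4a1 was at 9.92, 9.01 and 9.17 against 11.59, 11.16 and 11.78, 4.41-fold higher, and its relatives Nr4a3 and Nr4a2 were higher by 1.15 ± 0.23 and 0.92 ± 0.18. Egr1, a zinc finger factor of the serum response, was at 9.34, 7.63 and 8.18 against 10.65, 10.04 and 10.46, 3.99-fold higher. Egr2 was higher by 1.25 ± 0.24, Csrnp1 by 1.34 ± 0.19, Ier2 by 1.47 ± 0.17, Myc by 0.97 ± 0.17 and Klf6 by 0.83 ± 0.10. Srf, the factor that binds the serum response element of many of these genes, was higher by 0.75 ± 0.16. Members that did not pass were Egr3 (0.31 ± 0.10), Klf4 (0.40 ± 0.19), Klf2 (-0.05 ± 0.16) and Klf10 (-0.06 ± 0.10). Outside this list, Zfp36 stood at 11.31, 10.49 and 10.80 against 11.82, 11.66 and 11.94. It encodes an RNA-binding protein that speeds the decay of cytokine messages.

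**Figure D2:**
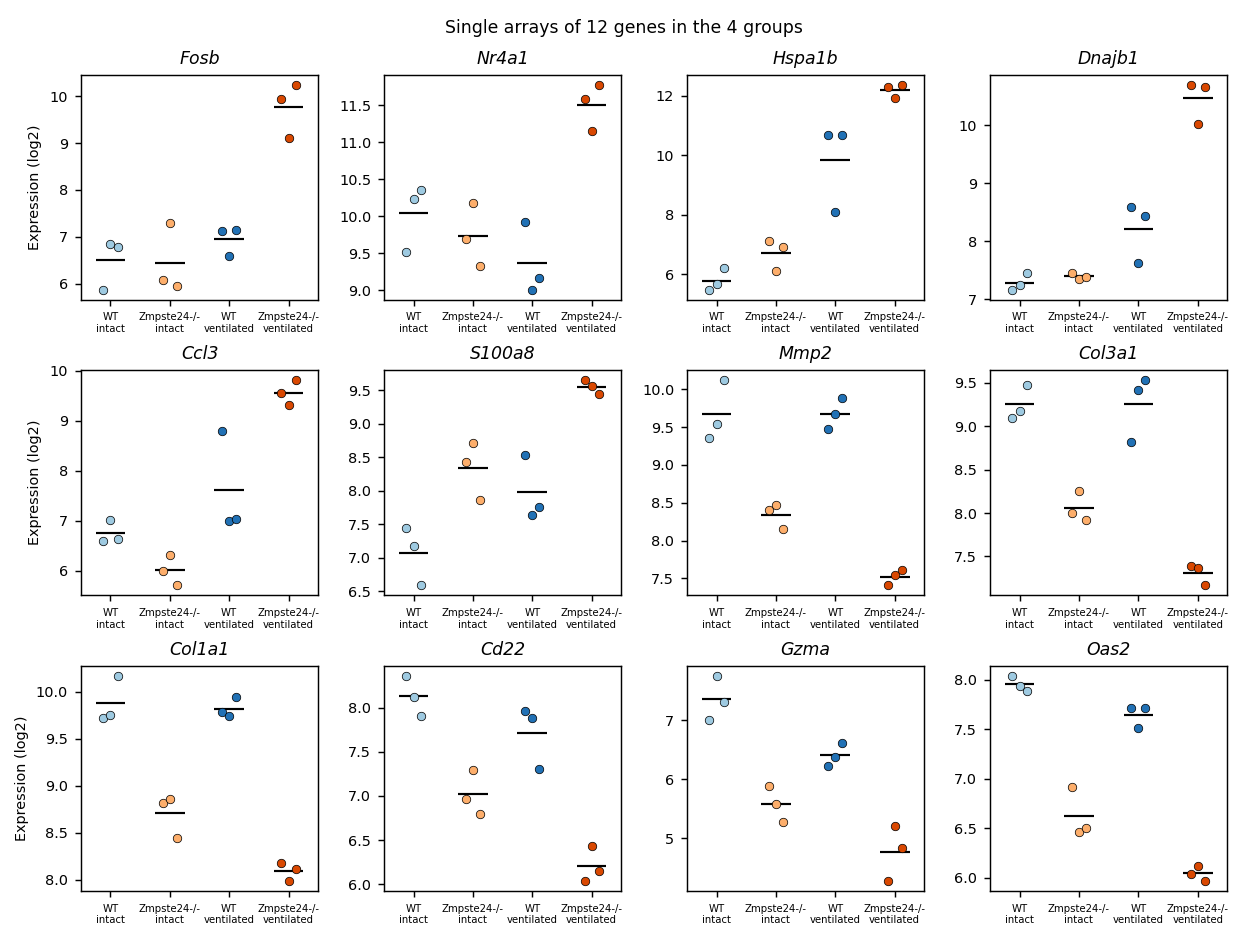
Expression (log2) of 12 genes in each array of the 4 groups, with 1 point per mouse and a bar at the group mean. In ventilated lungs Fosb is at 6.6 to 7.14 in wild type and 9.11 to 10.24 in Zmpste24-/- arrays, Mmp2 at 9.48 to 9.88 and 7.41 to 7.61, and Hspa1b has 1 low wild type array at 8.11.

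Feedback regulators of the kinase cascades that drive early genes followed in part. Of 16 MAP kinase phosphatases and growth factor feedback genes 8 were higher and none lower (50%), with a median of 0.41. That count was 4 without Zmpste24-/- ventilated array 2 or 3 or wild type ventilated array 2, and 5 without wild type ventilated array 3, without Zmpste24-/- intact array 3 or with quantile normalization. Dusp5, a phosphatase of nuclear ERK, was at 7.43, 7.11 and 7.16 against 7.70, 7.97 and 8.15. Dusp6, its cytoplasmic relative, was at 9.82, 9.42 and 9.69 against 10.55, 10.13 and 10.12. Of the 2 probes of Dusp6 1 was higher, and its call held with the mean of both. Dusp1 was higher by 0.67 ± 0.15, a call that ended without wild type ventilated array 3 (adjusted p = 0.0514).

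Ligands and receptors of the epidermal growth factor family had 6 of 10 measured members higher and none lower (60%). Hbegf, a ligand shed from the cell membrane, stood at 9.27, 8.8 and 9.45 against 10.18, 10.23 and 10.38, a difference of 1.09 ± 0.13. Nrg1, the neuregulin that binds ERBB3, was at 8.13, 7.84 and 8.09 against 8.75, 9.19 and 9.29, and its receptor Erbb3 at 9.01, 8.87 and 8.90 against 9.55, 9.49 and 9.57. Ligand and receptor were thus both higher, each without overlap. Egfr was higher by 0.44 ± 0.10, while Ereg (0.04 ± 0.12) and Epgn (-0.04 ± 0.10) did not pass.

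Targets of ATF4, the factor translated when protein synthesis is slowed in the integrated stress response, were higher in 9 of 20 measured members and lower in none (45%), with a median of 0.39. Chac1, a glutathione-degrading enzyme, stood at 8.15, 7.51 and 7.98 against 8.82, 9.19 and 8.87, a difference of 1.08 ± 0.22. Ppp1r15a, which brings a phosphatase to the translation factor eIF2 and so lifts the block, was at 8.14, 7.54 and 7.78 against 8.58, 8.82 and 8.87. Ddit3, the factor also called CHOP, was at 7.13, 7.04 and 7.25 against 7.87, 7.78 and 7.85, with a narrow spread in both genotypes. Atf4 itself was higher by 0.55 ± 0.11, Psat1 of serine synthesis by 0.86 ± 0.14, Sesn2 by 0.75 ± 0.16 and Cebpb by 0.93 ± 0.14. Trib3 did not pass (0.25 ± 0.15).

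The amino acid response element core, TGATGNAA on either strand, was in 1 of the 8 higher genes with a promoter in the table. Over the whole table it was in 4.51% of genes and 3.97% of promoters. The member with the match was Chac1, shown because it had the largest difference of the group, with the match in capitals on the opposite strand (RefSeq, GRCm38.p6).
Chac1, chr2:119350992-119351291, plus strand: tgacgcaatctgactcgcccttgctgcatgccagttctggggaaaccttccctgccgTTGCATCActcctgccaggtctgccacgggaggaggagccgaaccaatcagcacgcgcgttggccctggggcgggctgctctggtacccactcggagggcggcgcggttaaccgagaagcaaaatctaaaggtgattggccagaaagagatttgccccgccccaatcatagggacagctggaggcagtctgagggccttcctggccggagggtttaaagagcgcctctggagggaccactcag

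Chaperones of the endoplasmic reticulum were higher in 3 of 17 measured members and lower in none (17.6%, against 4.72% of all genes). Their median was 0.06. Dnajb9 stood at 9.05, 9.05 and 9.05 against 9.66, 9.92 and 10.09, a difference of 0.84 ± 0.13, and Xbp1, the spliced factor of the unfolded protein response, was higher by 0.44 ± 0.09. The third, Hspa5 or BiP (0.52 ± 0.12), lost its call without Zmpste24-/- ventilated array 3 (adjusted p = 0.0579) or wild type ventilated array 2 (adjusted p = 0.0584). With array medians subtracted, or when genes below the median level were not tested, 5 members were higher.

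NRF2, a transcription factor of the response to oxidants and electrophiles, and its targets had 7 of 17 measured members higher and none lower (41.2%). Osgin1 was at 10.20, 8.92 and 9.65 against 10.61, 11.20 and 10.80, and Srxn1, which repairs oxidised peroxiredoxins, at 9.02, 8.04 and 8.75 against 9.46, 10.20 and 9.48. Nfe2l2, the gene of NRF2, was higher by 0.65 ± 0.11. Classical targets did not all follow: Hmox1 (0.81 ± 0.30), Gclc (0.34 ± 0.17), Nqo1 (0.14 ± 0.10) and Slc7a11 (0.10 ± 0.34) did not pass, and Hmox1 overlapped, at 10.53, 9.13 and 10.04 against 10.41, 11.34 and 10.38. Within the Zmpste24-/- group array 2 was the highest for Osgin1, Srxn1 and Hmox1.

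Cytokine genes were higher in part. Of 20 members of the interleukin 1, interleukin 6 and TNF families 7 were higher and none lower (35%), with a median of 0.36. Lif stood at 6.43, 5.82 and 5.92 against 6.88, 6.97 and 7.2, and Socs3, the feedback inhibitor of the receptors that Lif and Il6 share, at 7.93, 7.17 and 7.6 against 8.33, 8.52 and 8.74. Tnfrsf12a, the TWEAK receptor, was higher by 0.86 ± 0.18. Il1b was at 9.37, 8.30 and 8.30 against 9.66, 10.12 and 9.99, a difference of 1.27 ± 0.31 whose call (adjusted p = 0.0187) ended without Zmpste24-/- ventilated array 2 (0.069) or 3 (0.0632), without array 2 (0.0846) or 3 (0.0823) of the ventilated wild type mice and under the trended and robust model (0.0694). Il6 was at 5.32, 4.60 and 5.17 against 5.41, 5.73 and 6.89 and did not pass (adjusted p = 0.0511). Tnf (0.38 ± 0.22) and Il1a (-0.16 ± 0.19) did not pass either.

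Chemokines went both ways. Of 21 chemokines and receptors of neutrophils and monocytes 5 were higher and 3 lower (23.8% and 14.3%). The count of higher members was 3 without Zmpste24-/- ventilated array 1 or 3 or wild type ventilated array 2, and 2 without wild type ventilated array 3. Ccl3, which attracts monocytes and other leukocytes, stood at 8.8, 6.99 and 7.03 in wild type and 9.55, 9.31 and 9.81 in Zmpste24-/- lungs, 3.86-fold higher, with wild type array 1 well above the others of its group. Ccr1, a receptor for Ccl3, was at 6.6, 6.28 and 6.2 against 7.55, 7.85 and 7.36. Lower members included Ppbp, the platelet basic protein, at 9.04, 9.64 and 9.93 against 8.17, 7.97 and 8.31, and Ccl22, made by dendritic cells, at 7.48, 7.07 and 7.41 against 6.42, 6.28 and 6.19. The neutrophil attractants Cxcl1 (0.07 ± 0.23) and Cxcl2 (0.50 ± 0.16, adjusted p = 0.0547) did not pass.

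Of 18 measured neutrophil markers 10 were higher, 1 was lower and 7 did not pass (55.6% higher and 5.56% lower), with a median of 0.65, and 8 to 11 were higher when single arrays were left out. The mean over the markers, set to 0 at the wild type ventilated mean, was 0.25, -0.09 and -0.16 in the wild type and 0.61, 0.66 and 0.60 in the Zmpste24-/- ventilated lungs. S100a8, a calgranulin of neutrophil cytosol, stood at 8.54, 7.64 and 7.75 against 9.65, 9.56 and 9.44, and its partner S100a9 at 8.20, 7.38 and 7.29 against 9.17, 8.93 and 9.07. Mmp8, the neutrophil collagenase, was higher by 1.51 ± 0.27, Clec4d by 1.55 ± 0.17, Retnlg by 1.39 ± 0.30 and Il1r2, the decoy receptor of interleukin 1, by 1.46 ± 0.27. Stfa2l1, a stefin that inhibits cysteine proteases in neutrophils, had the largest increase among the 30 genes named by rule (the 15 largest changes in each direction), at 7.2, 6.31 and 5.81 against 9.69, 9.96 and 9.86, 10.5-fold (limma adjusted p = 0.000163). Its relative Stfa1 was at 4.40, 4.22 and 4.24 against 5.61, 6.43 and 6.43, while Stfa2 did not pass (-0.25 ± 0.18); members of this family are alike in sequence and may share signal. Granule genes of immature neutrophils, Ngp (0.30 ± 0.20) and Camp (0.24 ± 0.10), did not pass and lay below the array medians, and Ly6g was at 4.06 to 5.09 in the 6 arrays. In whole lung, fewer or more cells of a type and less or more RNA per cell cannot be told apart, here and for all cell type genes that follow, and the part of such cell type genes in the other differences was not tested.

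Ltf, which encodes lactoferrin of secondary granules and of airway glands, went the other way. It stood at 9.11, 8.05 and 7.57 in wild type and at 5.83, 5.70 and 6.17 in Zmpste24-/- ventilated lungs, a difference of -2.34 ± 0.60 (limma adjusted p = 0.0229). The call was lost without Zmpste24-/- ventilated array 1 (0.0674), 2 (0.0722) or 3 (0.0531), without wild type ventilated array 1 (0.0736) or 2 (0.0579), and under the trended and robust model (0.0961). Intact lungs held high and low arrays in both genotypes, 5.63, 5.36 and 7.77 in wild type and 7.53, 5.59 and 5.75 in Zmpste24-/- mice.

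Of 18 NF-kB subunits and feedback inhibitors 3 were higher and none lower (16.7%), and 5 were higher without wild type ventilated array 1. Icam1, the adhesion molecule for leukocytes, stood at 10.86, 10.90 and 10.98 against 11.28, 11.40 and 11.49, and Tnfaip3, the feedback inhibitor A20, was higher by 0.48 ± 0.10, while Nfkbia (0.09 ± 0.11), Nfkb2 (-0.08 ± 0.10) and Relb (-0.15 ± 0.09) did not pass. Ptgs2, the inducible cyclooxygenase, was at 10.98, 9.96 and 10.95 against 12.14, 12.13 and 12.05, 2.78-fold higher. Saa3, the acute-phase serum amyloid of lung, was at 6.68, 6.44 and 8.04 against 8.85, 8.61 and 8.14, 2.79-fold higher, with the wild type and Zmpste24-/- ranges close at wild type array 3. F3, tissue factor, which starts coagulation, was at 10.73, 10.16 and 10.58 against 11.45, 11.76 and 11.26. Their lists went both ways, where over all genes 4.72% were higher and 6.08% lower. Of 15 prostaglandin genes 2 were higher and 1 lower (13.3% and 6.67%). Of 18 acute-phase and mucosal defence genes 2 were higher and 1 lower (11.1% and 5.56%), with a median of -0.18. Of 17 coagulation and fibrinolysis genes 2 were higher and 3 lower (11.8% and 17.6%). Without single arrays the higher counts ran from 1 to 2, 1 to 2 and 1 to 3. The lower counts ran from 1 to 2, 0 to 2 and 1 to 4.

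Among 21 measured p53 targets 4 were higher and none lower (19%, against 4.72% of all genes): Btg2, Plk3, Cdkn1a and Sesn2. Btg2, an antiproliferative gene, stood at 9.67, 9.10 and 9.26 against 10.91, 10.58 and 11, and Plk3 at 8.71, 7.97 and 8.43 against 9.62, 9.47 and 9.36. Cdkn1a, the cell cycle inhibitor p21, was at 10.37, 10.77 and 10.87 against 11.36, 11.71 and 11.42; its call (adjusted p = 0.016) ended without Zmpste24-/- ventilated array 2 (0.0675) or wild type ventilated array 1 (0.0526). Mdm2 (0.15 ± 0.09) and the senescence inhibitor Cdkn2a (0.28 ± 0.11) did not pass. Ccnd1, cyclin D1, was lower at 9.46, 9.41 and 9.49 against 8.35, 8.24 and 8.44, whereas the replication clamp gene Pcna was higher at 8.78, 8.94 and 8.94 against 9.45, 9.43 and 9.61. Of 25 cell cycle and replication genes 1 was higher and 5 were lower (20%, against 6.08% of all genes), a lower count that was 2 without Zmpste24-/- ventilated array 2 or 3 or wild type ventilated array 2 or 3, and 3 without Zmpste24-/- ventilated array 1, with array medians subtracted, with quantile normalization, with trended and robust variances, in the ventilated arrays alone or when genes below the median level were not tested.

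Of 15 measured genes of the insulin-like growth factor axis 3 were higher and 2 lower (20% and 13.3%). The higher count was 1 without Zmpste24-/- ventilated array 1 or 2 or wild type ventilated array 1 or 3. It was also 1 without Zmpste24-/- intact array 2 or wild type intact array 2. Igf1 was at 6.59, 7.04 and 6.76 against 5.92, 6.19 and 6.10, and its carrier Igfbp3 was lower by the fit at -0.63 ± 0.13. Irs2, a substrate of the insulin receptor, was higher at 8.65, 8.22 and 8.29 against 8.97, 9.23 and 9.30. Igf2 stood at 6.36, 6.47 and 6.28 against 6.67, 6.76 and 6.68, a difference of 0.33 ± 0.10 whose call (adjusted p = 0.042) ended without any one of the 6 ventilated arrays, Zmpste24-/- intact array 2 or wild type intact array 2 (adjusted p between 0.0502 and 0.145). Igfbp6, a carrier that prefers Igf2, was higher by 0.45 ± 0.13 (adjusted p = 0.0456) with overlapping genotypes, and not without any one of 9 arrays, ventilated Zmpste24-/- 1 and 2, ventilated wild type 1 and 3, all 3 intact Zmpste24-/- and intact wild type 2 and 3 (adjusted p between 0.0523 and 0.178). Of 18 glucocorticoid-induced genes 8 were higher and none lower (44.4%), but 2 without Zmpste24-/- ventilated array 2, 3 without wild type ventilated array 1, 4 without wild type ventilated array 2 and 5 without Zmpste24-/- ventilated array 1, without wild type ventilated array 3 or with quantile normalization. Tsc22d3, the glucocorticoid-induced leucine zipper, kept its call in each of these, at 7.09, 7.40 and 7.44 against 8.03, 7.86 and 7.73. Fkbp5, a chaperone partner of the receptor, did not pass (0.54 ± 0.17, adjusted p = 0.0635).

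Of 17 clock genes and outputs 2 were higher in ventilated Zmpste24-/- lungs and none lower (11.8%). Cry1, a repressor of the clock, stood at 6.74, 6.97 and 7.18 against 7.90, 7.45 and 7.87, and Nfil3, a repressor of clock outputs, at 7.80, 8.13 and 8.42 against 9.26, 9.22 and 9.57. The outputs Dbp (-0.58 ± 0.39), Per3 (-0.15 ± 0.28) and Nr1d1 (-0.46 ± 0.31) did not pass.

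Many extracellular matrix genes were lower in the ventilated lungs lacking Zmpste24. Of 20 collagens of fibrils and basement membranes 10 were lower and none higher (50%, against 6.08% of all genes), with a median difference of -0.38, and 9 to 11 were lower when single arrays were left out. Fibrillar collagens make up most of the protein of the matrix and are secreted chiefly by fibroblasts.

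Col3a1, the chain of type III collagen, stood at 8.82, 9.42 and 9.53 in wild type and at 7.39, 7.37 and 7.17 in Zmpste24-/- ventilated lungs, 3.86-fold lower (difference -1.95 ± 0.16, limma adjusted p = 3.4e-05). The chains of type I collagen were Col1a1, at 9.78, 9.74 and 9.94 against 8.18, 7.99 and 8.11, and Col1a2, at 8.94, 9.08 and 9.10 against 7.61, 7.65 and 7.49. Arrays of one genotype lay within about 0.2 of each other for both type I chains, and the gap between genotypes was several times wider. Col6a3 (-1.47 ± 0.15), Col14a1 (-0.97 ± 0.17) and Col6a2 (-0.59 ± 0.11) were lower too. The type IV chains of basement membrane, Col4a1 (-0.33 ± 0.12) and Col4a2 (-0.19 ± 0.11), did not pass. Col5a1 and Col6a1 each had a second probe, and their calls ended with the mean of both probes (adjusted p = 0.379 and 0.426). Col1a2 also had 2 probes, of which 1 was lower, and its call held with the mean of both.

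Mmp2, the gelatinase made by fibroblasts, was next to Zmpste24 and Ltf in the size of its decrease among the 30 genes named by rule, at 9.48, 9.67 and 9.88 against 7.41, 7.55 and 7.61, 4.44-fold (limma adjusted p = 2.36e-05). Other matrix-degrading enzymes were higher: Mmp19 at 8.09, 7.79 and 7.87 against 8.99, 9.09 and 8.67, and Adamts4, an aggrecanase, at 6.16, 5.70 and 6.14 against 6.63, 6.85 and 7.33. Of 21 metalloproteinases, ADAMTS proteases and their TIMP inhibitors, 4 were higher and 1, Mmp2, was lower (19% and 4.76%). Timp1 did not pass (0.10 ± 0.14).

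Elastic fibre and matricellular genes had 6 of 17 members lower and none higher (35.3%). Eln, tropoelastin, stood at 8.39, 9.11 and 9.01 against 7.45, 7.95 and 7.64, and Mfap5, a microfibril protein, at 8.70, 8.52 and 8.47 against 7.56, 7.31 and 7.48. Postn, periostin, was at 10.12, 10.16 and 10.14 against 9.40, 9.62 and 9.54. Tnc (-0.01 ± 0.35) and Thbs1 (0.51 ± 0.19), matricellular genes induced by injury, did not pass. Of 12 small leucine-rich proteoglycans 4 were lower and none higher (33.3%): Chad, Aspn, Lum and Prelp. Chad, chondroadherin, was at 10.23, 9.36 and 9.36 against 7.77, 7.82 and 7.84, 3.59-fold lower, and Aspn, asporin, at 7.24, 7.42 and 7.21 against 6.16, 6.49 and 6.16. Prelp was lower by the fit at -0.81 ± 0.08, a call that ended with the mean of its 2 probes (adjusted p = 0.0832). Lum lay at 3.69 to 5.03 in the 6 arrays, below every array median, and its call (adjusted p = 0.0293) was lost without any one of the 6 ventilated arrays (adjusted p between 0.0504 and 0.103) and under the trended and robust model (0.0667). Dcn, decorin, did not pass (0.02 ± 0.15).

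Integrins, which bind cells to matrix, and the laminins they bind were lower in 9 of 24 subunits and higher in none (37.5%), and in 5 without wild type ventilated array 2. Itga8, an integrin of lung fibroblasts and pericytes, stood at 10.17, 9.99 and 9.94 against 9.47, 9.28 and 9.22, and Lama2, a laminin chain, at 8.09, 8.24 and 8.21 against 7.47, 7.36 and 7.51. Piezo2, a stretch-gated cation channel, was at 7.73, 8.15 and 8.30 against 6.6, 6.80 and 6.95, 2.43-fold lower. It was 1 of 3 lower members among 13 mechanosensitive channels (23.1%), and Piezo1 did not pass (0.09 ± 0.08).

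Fibroblast markers were lower in 8 of 19 measured members and higher in 1 (42.1% and 5.26%), and lower in 5 without Zmpste24-/- ventilated array 3 or wild type ventilated array 2. The mean over the list, set to 0 at the wild type ventilated mean, was -0.02, 0.04 and -0.02 in wild type and -0.42, -0.42 and -0.52 in Zmpste24-/- ventilated lungs; its collagens are also counted above. Dpt, dermatopontin, was at 10.30, 10.71 and 10.70 against 10.00, 9.52 and 9.48, and Fgf10, the growth factor of lung mesenchyme, at 5.90, 6.03 and 6.04 against 5.43, 5.39 and 5.0. Pdgfra, a defining receptor of lung fibroblasts, was at 10.91, 10.93 and 11 against 10.85, 11.03 and 10.98 and did not pass (0.01 ± 0.08). Tcf21, a transcription factor of the same cells, was higher, at 8.8, 8.65 and 8.48 against 9.17, 9.54 and 9.42. Lrat, which esterifies retinol for storage, was at 8.68, 9.31 and 8.52 against 7.58, 7.2 and 7.07, 2.94-fold lower.

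Smooth muscle and pericyte genes were lower in 6 of 17 members and higher in none (35.3%), with a median of -0.50, and in 10 with the replicate number as a block. Wild type ventilated array 1 was high for these genes, and its mean over the list was 0.39 against -0.14 and -0.25 in the other arrays of its group. Myh11, smooth muscle myosin, stood at 10.20, 9.26 and 9.10 against 8.09, 7.98 and 8.37, 2.58-fold lower, and Synpo2 at 7.77, 6.87 and 6.53 against 5.92, 5.76 and 5.88. Acta2 was lower at -0.86 ± 0.22, a call lost without wild type ventilated array 1 (0.0744) or 2 (0.0562), without Zmpste24-/- ventilated array 2 (0.0901) or 3 (0.0633) and under the trended and robust model (0.0557). Cnn1 (-1.48 ± 0.47) and Des (-0.82 ± 0.26) did not pass.

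The same wild type array was high for cardiac muscle genes, which mark the muscle sleeves of pulmonary veins. Of 14 such genes 1 was lower and none higher (7.14%, near the 6.08% of all genes), with a median of -1.02. The count was 2 without Zmpste24-/- intact array 1 or wild type intact array 2. It was 4 with the replicate block and 3 when wild type ventilated array 3 was left out. The gene that passed was Actc1, cardiac actin, at 11.30, 10.42 and 10.03 against 8.61, 9.01 and 9.28 (difference -1.62 ± 0.41, limma adjusted p = 0.0216). Its call was lost without wild type ventilated array 1 (0.0712) or 2 (0.053), without Zmpste24-/- ventilated array 1 (0.0844) or 2 (0.0562) and under the trended and robust model (0.0891). Myh6 was at 10.05, 8.53 and 7.99 against 6.51, 7.67 and 7.45 and did not pass.

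Endothelial genes were lower in 5 of 21 measured markers and higher in 1 (23.8% and 4.76%), and lower in 3 without Zmpste24-/- ventilated array 3 or wild type ventilated array 2 or 3. None was higher without Zmpste24-/- ventilated array 2 or 3 or any one of the wild type ventilated arrays, or with quantile normalization, and 2 were with the replicate block. Aplnr, the apelin receptor of vein and capillary endothelium, stood at 7.16, 7.45 and 7.38 against 6.22, 6.42 and 5.81, and its ligand Apln at 6.23, 6.32 and 6.54 against 5.24, 5.36 and 5.34. Emcn, endomucin, was at 9.50, 9.82 and 9.59 against 9.06, 8.92 and 8.88, and Tie1 was lower at -0.48 ± 0.08. Pecam1 (-0.27 ± 0.09, adjusted p = 0.0617) and Cldn5 (-0.20 ± 0.11) did not pass. In the guanylate cyclase pathway of vessel relaxation, Pde5a was at 10.13, 10.05 and 9.99 against 9.42, 9.43 and 9.27 and Gucy1a1 at 10.40, 10.41 and 10.22 against 9.79, 9.98 and 9.80. Adm, the vasodilator adrenomedullin, was higher at 8.06, 7.92 and 8.5 against 9.35, 9.45 and 9.26. Cd34 (-0.76 ± 0.11) and Itga4 (-1.12 ± 0.13), adhesion molecules of vessels and leukocytes, were lower.

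B cell genes were lower in nearly every measured member. Of 14 markers 13 were lower and none higher (92.9%), with a median of -0.85, and 10 to 13 were lower when single arrays were left out. The mean over the markers was 0.12, 0.20 and -0.32 in the wild type and -1.07, -0.74 and -0.95 in the Zmpste24-/- ventilated lungs, relative to the wild type ventilated mean. Cd22, an inhibitory receptor, stood at 7.96, 7.88 and 7.31 against 6.04, 6.43 and 6.15, 2.85-fold lower. Ms4a1, the antigen CD20, was at 7.63, 7.95 and 7.15 against 6.06, 6.6 and 6.42, and Cd79a, a signalling chain of the B cell receptor, at 9.58, 9.84 and 8.91 against 8.19, 8.69 and 8.07. The kinase gene Blk (-1.20 ± 0.15) and the transcription factor gene Ebf1 (-0.84 ± 0.18) were lower. Vpreb3 was the member that did not pass (-0.06 ± 0.21).

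T cell genes were lower in 9 of 16 measured members and higher in none (56.2%), with a median of -0.57. Cd3g, a chain of the T cell receptor complex, stood at 7.55, 8.18 and 8.09 against 6.95, 6.89 and 6.64, and Cd3e at 8.11, 8.25 and 8.41 against 7.46, 7.59 and 7.65. Cd8a was at 6.14, 6.36 and 5.84 against 5.36, 5.36 and 5.34, near the array medians in the Zmpste24-/- lungs. Bcl11b (-0.81 ± 0.10) and Lef1 (-0.78 ± 0.13), transcription factors of T cells, were lower. Slamf6, an adhesion receptor of T, B and NK cells, was at 6.97, 7.10 and 6.94 against 5.38, 5.56 and 5.26, close to the array medians, and Btla, an inhibitory receptor of lymphocytes, at 8.76, 9.40 and 8.78 against 7.28, 7.66 and 7.29, 2.96-fold lower.

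Genes of NK and cytotoxic lymphocytes were lower in 10 of 17 and higher in none (58.8%), with 9 or 10 lower when single arrays were left out and 5 when genes below the median level were not tested. Gzma, granzyme A, stood at 6.23, 6.38 and 6.62 against 4.28, 5.21 and 4.83. Klrd1, the CD94 receptor, was at 6.86, 7.28 and 7.14 against 5.39, 5.97 and 5.19, and Ncr1, the receptor NKp46, at 6.17, 6.63 and 6.46 against 4.91, 5.02 and 5.13. Ccl5, a chemokine of activated lymphocytes, was at 9.04, 9.08 and 9.06 against 7.67, 7.85 and 7.70. Ncr1 and Gzma lay below the array medians in all 3 ventilated Zmpste24-/- lungs.

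Genes of antigen presentation were lower in 9 of 14 dendritic cell and MHC class II members and higher in none (64.3%), but in 5 without wild type ventilated array 2. H2-Ab1 stood at 11.10, 11.59 and 11.53 against 10.70, 10.69 and 10.45, H2-Eb1 at 9.17, 9.34 and 9.34 against 8.95, 8.74 and 8.53, and Ciita, the activator of these genes, at 7.45, 7.79 and 7.45 against 6.81, 6.98 and 7.02. Class II genes are carried by B cells as well as by dendritic cells and macrophages. Of 19 macrophage and monocyte markers 1 was higher and 1 lower (5.26% each), near the 4.72% and 6.08% of all genes. None was higher without Zmpste24-/- ventilated array 1 or 3 or wild type ventilated array 3, and 2 were without Zmpste24-/- intact array 1. The lower count was 2 without Zmpste24-/- ventilated array 1, wild type ventilated array 1 or wild type intact array 2. The lower one, Plac8, also expressed by lymphocytes, was at 7.31, 7.61 and 7.21 against 6.02, 6.52 and 6.46.

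Of 23 measured interferon-stimulated and guanylate-binding genes 6 were lower and none higher (26.1%). Oas2, the 2'-5' oligoadenylate synthetase that senses double-stranded RNA, stood at 7.71, 7.51 and 7.71 against 6.04, 6.12 and 5.97, 3.03-fold lower (limma adjusted p = 1.63e-05). Rtp4 was at 7.72, 7.83 and 7.82 against 6.68, 7.12 and 6.91 and Irf7, the regulator of interferon genes, at 7.18, 7.14 and 7.36 against 6.75, 6.83 and 6.82. Gbp4 was at 6.47, 7.10 and 7.40 against 4.43, 6.16 and 5.75 (difference -1.55 ± 0.40, adjusted p = 0.0255); its call was lost without Zmpste24-/- ventilated array 1 (0.094), the lowest of the 6 arrays, without wild type ventilated array 2 (0.084) or 3 (0.104), and under the trended and robust model (0.0919).

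Epithelial gene groups differed in their calls. Shares were 26.7% higher for alveolar type 1, and 18.8% and 16.7% lower for alveolar type 2 and ciliated genes. Over all genes 4.72% were higher and 6.08% lower. Sftpc (0.02 ± 0.08) and the club cell gene Scgb1a1 (0.08 ± 0.07) did not pass, and none of 13 club and goblet cell genes did by limma (1 to 3 were lower under 8 alternatives). Of 16 alveolar type 2 genes 3 were lower, and none was without Zmpste24-/- ventilated array 2 or 3, without wild type ventilated array 2 or 3, or with array medians subtracted; the replicate block gave 1, and quantile normalization and array weights gave 5 each. Of 15 alveolar type 1 genes 4 were higher, and 2 without Zmpste24-/- ventilated array 2 or 3 or wild type ventilated array 1 or 2 or with quantile normalization. Gprc5a, an alveolar type 1 gene, was at 11.75, 11.85 and 11.84 against 12.26, 12.33 and 12.25, and Hopx at 7.58, 7.65 and 7.72 against 8.06, 8.06 and 7.97. Of 18 ciliated cell genes 3 were lower, and 1 without any one of Zmpste24-/- ventilated arrays 1 and 2 and the 3 wild type ventilated arrays. Cfap43, of the motile cilium, was at 8.35, 8.03 and 8.12 against 7.16, 7.49 and 7.27, while Foxj1, the regulator of these cells, did not pass (0.13 ± 0.17).

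Junction and keratin genes went both ways, with 5 of 19 higher and 2 lower (26.3% and 10.5%). The higher count was 2 without Zmpste24-/- ventilated array 2 or wild type ventilated array 2, and 3 without Zmpste24-/- ventilated array 3. The lower count was 1 without Zmpste24-/- ventilated array 2 or wild type ventilated array 3. Krt18, a keratin of simple epithelia, stood at 9.57, 9.14 and 9.37 against 10.16, 10.31 and 10.16, and Cldn3 at 9.43, 8.94 and 9.05 against 9.90, 9.68 and 9.76. Cldn1, another claudin of tight junctions, was lower at 7.55, 7.55 and 7.6 against 6.88, 6.69 and 6.42. Genes of fluid clearance were higher in 5 of 13 members and lower in 1 (38.5% and 7.69%). They were higher in 3 without Zmpste24-/- ventilated array 1 or 2. They were lower in 2 without Zmpste24-/- or wild type ventilated array 1 or with quantile normalization. Scnn1a, the alpha subunit of the epithelial sodium channel, was at 11.21, 11.18 and 11.24 against 11.75, 11.75 and 11.75, and Scnn1b at 9.55, 9.71 and 9.65 against 10.15, 10.12 and 10.06. Slc26a4, the anion exchanger pendrin, was the lower one, at 6.59, 5.72 and 6.96 against 4.60, 4.66 and 5.36; its Zmpste24-/- values lay at or below the array medians.

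Some of the largest increases fell in none of these groups. Frat2, which binds the kinase GSK3 in Wnt signalling, stood at 5.57, 5.06 and 5.27 against 7.52, 6.85 and 7.62, a difference of 2.03 ± 0.17 (limma adjusted p = 3.4e-05), with the wild type arrays near their medians. Foxq1, a forkhead transcription factor, was at 7.42, 7.03 and 7.55 against 9.08, 9.13 and 9.50, 3.73-fold higher. Lonrf3, a ring finger protein, was at 6.49, 6.34 and 6.58 against 8.06, 7.97 and 8.99, 3.66-fold higher. The ranking of the largest changes took only genes without overlap, so the gap between the genotypes in these 3 was fixed by it.

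Of 57 cytosolic ribosomal protein genes 19 were higher and 1 was lower (33.3% and 1.75%), with a median of 0.29, and 12 were higher without Zmpste24-/- ventilated array 1. None was lower without Zmpste24-/- ventilated array 1 or 2, any one of the wild type ventilated arrays or Zmpste24-/- intact array 3, nor with quantile normalization. Rps13 stood at 6.85, 7.22 and 6.96 against 8.20, 8.24 and 8.30, and Rps24 at 8.83, 8.73 and 8.60 against 9.65, 9.48 and 9.42. Ribosomal protein genes have many near-identical pseudogenes, so signal may be shared. Of 78 small nucleolar RNAs, which guide the modification of ribosomal RNA and are mostly cut from introns of host genes, 26 were higher and 1 was lower (33.3% and 1.28%), with 2 lower without wild type intact array 2 and 3 without wild type ventilated array 1. Snord13 was at 7.72, 7.33 and 7.36 against 9.43, 8.96 and 9.20, and Snora34 at 9.37, 9.20 and 9.11 against 10.58, 10.29 and 10.38.

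Of 483 microRNA genes on the array 43 passed, 13 higher and 30 lower (8.9%, against 10.8% of all genes), with a median of -0.04. The probes report RNA from the microRNA gene, which includes the precursor, and do not tell the mature arms apart. Mature sequences were read from the RefSeq table (GRCm38.p6), with 1 chromosome left out in the processing. Of the 43 genes 39 had a mature sequence on the chromosomes kept, and no seed was shared by more than 1 of these 39 genes. Whether the remaining genes have a mature sequence or share a seed was not tested. Mature sequences are shown for members known from fibroblasts and growth control, with the seed, bases 2 to 8, in capitals.
miR-99a-5p: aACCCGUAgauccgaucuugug
let-7c-5p: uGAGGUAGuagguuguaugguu
miR-195a-5p: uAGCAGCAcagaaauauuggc
miR-18a-5p: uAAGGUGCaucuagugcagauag
miR-19a-3p: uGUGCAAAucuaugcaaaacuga
miR-31-5p: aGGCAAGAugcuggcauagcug

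The first 3 came from genes that were lower. Mir99a stood at 5.09, 5.73 and 5.04 against 3.82, 4.33 and 4.01, Mirlet7c-1 at 4.17, 5.23 and 4.20 against 3.46, 3.62 and 3.59, and Mir195a at 4.77, 4.64 and 4.70 against 4.18, 4.26 and 3.95. The other 3 came from genes that were higher. Mir18 was at 5.34, 5.36 and 5.68 against 5.80, 6.85 and 6.42, Mir19a at 3.58, 3.88 and 3.85 against 4.18, 4.81 and 4.45, and Mir31 at 4.98, 4.98 and 5.02 against 5.34, 5.59 and 5.54. Mir17 (0.40 ± 0.15) and Mir20a (0.27 ± 0.17), which lie in the same cluster as Mir18 and Mir19a, did not pass. Most of these values lay near or below the array medians.

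The genotype difference in ventilated lungs was then set against that in intact lungs. The 2 differences come from different arrays. Their calls share 1 estimate of the spread per gene, fitted over all 12 arrays, so the shared calls are not from independent tests. In intact lungs 1399 genes passed (6.31%), 488 higher (2.2%) and 911 lower (4.11%); the count was 646 without Zmpste24-/- intact array 3, 878 without wild type intact array 2 and 906 without Zmpste24-/- intact array 1. A set of 643 genes passed in both comparisons, which is 26.8% of the ventilated and 46% of the intact calls, and 632 of them had the same direction. The shared lower genes numbered 433, or 32.1% of the lower calls in ventilated lungs, and the shared higher genes 199, or 19% of the higher calls. Across genes, which are not independent replicates, the differences correlated with r = 0.5.

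Of the 14 heat shock chaperones 1 was higher in intact lungs, and of the 25 immediate early factors 1, against 13 and 21 in ventilated lungs. Stfa2l1 was higher in intact lungs too, at 6.14, 5.73 and 5.08 against 7.61, 8.82 and 7.55 (2.34 ± 0.37, limma adjusted p = 0.00262). In intact lungs Col1a1 was at 9.72, 9.75 and 10.17 against 8.82, 8.86 and 8.44, and Mmp2 at 9.36, 9.54 and 10.12 against 8.41, 8.47 and 8.15. Of the 20 collagens 7 were lower in intact lungs, of the 14 B cell genes 9 and of the 17 NK and cytotoxic genes 12. Endothelial markers were lower in 8 of 21 and interferon-stimulated genes in 8 of 23, against 5 and 6 in ventilated lungs. Glucocorticoid-induced genes were higher in 9 of 18 and ribosomal protein genes in 22 of 57 (2 lower), against 8 and 19 in ventilated lungs. Over all genes 2.2% were higher and 4.11% lower in intact lungs. Small nucleolar RNAs had a median difference of 0.63 in intact lungs, with 42 of 78 higher, against 0.30 under ventilation. Clock genes had 7 members higher and 3 lower in intact lungs, among them Per3 (1.40 ± 0.28) and Arntl (-2.01 ± 0.26), neither of which passed in ventilated lungs.

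**Figure D3:**
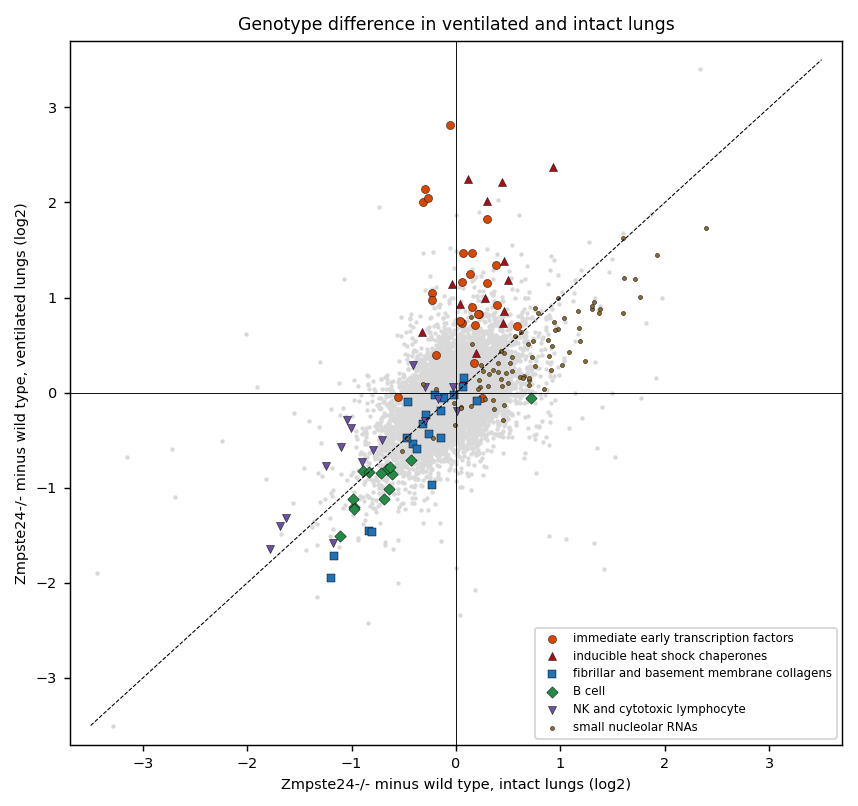
Genotype difference (Zmpste24-/- minus wild type, log2) in ventilated lungs on the vertical axis and in intact lungs on the horizontal axis, with 1 grey point per gene, 6 gene groups in colour and a dashed line of equal difference. Of the immediate early factors 21 of 25 and of the heat shock chaperones 13 of 14 passed above 0 on the vertical axis, while 1 member of each passed in intact lungs; most B cell, NK cell and collagen genes lie below 0 on both axes.

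The test of the difference between the 2 genotype differences (the interaction) passed for 70 genes (0.316%; 2598 had an unadjusted p under 0.05), 59 of them more positive and 11 more negative (0.0496%) in ventilated lungs. Of the 70 genes 64 also passed in ventilated lungs and 17 in intact lungs, and 11 passed in both with opposite directions. The count lay between 8 and 26 without any one of 9 arrays, and was 8 without Zmpste24-/- intact array 1 and 118 without wild type intact array 1. Of the heat shock chaperones 3 passed this test and of the immediate early factors 5.

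Adm and Ahr shared the smallest adjusted p, and both changed sign. Adm was lower in intact Zmpste24-/- lungs, at 6.55, 7.29 and 7.11 against 5.86, 5.85 and 6.04, and higher in ventilated ones, for an interaction of 2.26 ± 0.25 (limma adjusted p = 0.00401). Ahr, the aryl hydrocarbon receptor, went from 9.69, 9.85 and 9.70 against 9.13, 9.25 and 9.16 in intact lungs to 9.47, 9.28 and 9.49 against 9.94, 10.10 and 10.04 in ventilated lungs (interaction 1.18 ± 0.12). Map2k3os, an RNA read next to the kinase gene Map2k3, crossed in the same way, with differences of -0.35 ± 0.09 and 0.81 ± 0.09. Brd2, a reader of acetylated histones, was at 8.53, 8.44 and 8.47 against 8.30, 8.28 and 8.35 in intact and at 9.06, 8.77 and 8.94 against 9.73, 9.74 and 9.78 in ventilated lungs. Its intact difference did not pass (-0.17 ± 0.08).

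The difference of Dnajb1 in intact lungs did not pass (0.11 ± 0.22), at 7.17, 7.25 and 7.45 against 7.46, 7.36 and 7.38, with an interaction of 2.14 ± 0.31 (limma adjusted p = 0.0159). Foxq1 (interaction 1.68 ± 0.22), Ier5 (1.10 ± 0.15), Hbegf (1.32 ± 0.19) and Ccnl1, a cyclin that acts in splicing (0.89 ± 0.12), had intact differences that did not pass. Arntl, the clock activator BMAL1, differed in intact lungs and not detectably in ventilated lungs: it was at 7.47, 8.49 and 8.06 against 5.86, 6.16 and 5.99 in intact and at 7.62, 8.75 and 8.42 against 9.08, 8.70 and 8.87 in ventilated lungs (interaction 2.63 ± 0.37).

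Beside these stand the changes with ventilation within each genotype, which share arrays with the genotype differences and are given as values alone. From intact to ventilated lungs Fosb moved by 0.45 in wild type and 3.31 in Zmpste24-/- mice, Nr4a1 by -0.67 and 1.77, and Dnajb1 by 0.93 and 3.07. Hspa1b moved by 4.03 and 5.47. Col1a1 moved by -0.06 and -0.61, Mmp2 by 0.00 and -0.82, and Mfap5 by -0.19 and -0.91. Gzma moved by -0.95 and -0.81, and Oas2 by -0.31 and -0.58.

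**Figure D4:**
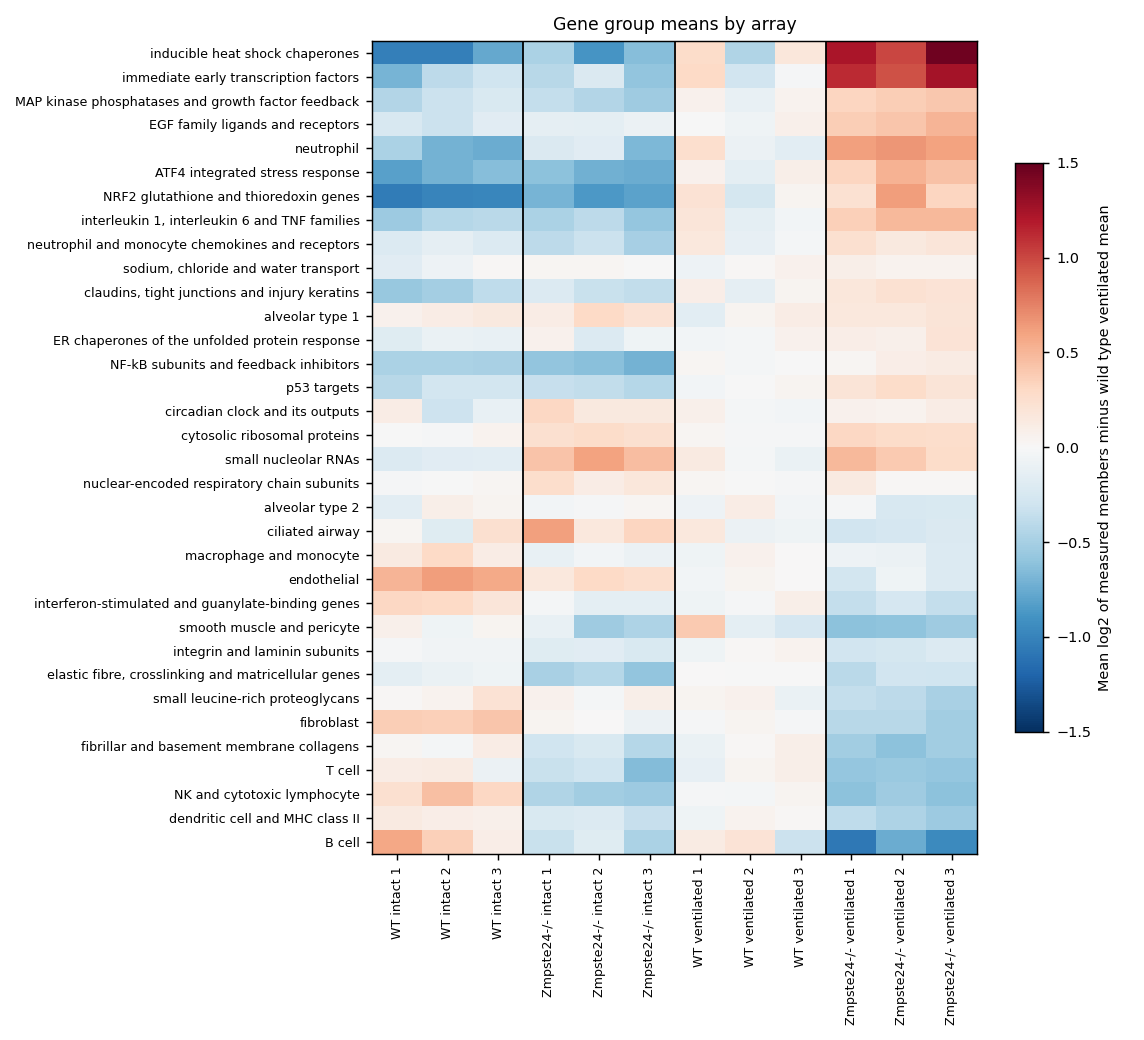
Mean log2 expression of the measured members of each gene group in each of the 12 arrays, as colour, relative to the mean of the 3 wild type ventilated arrays. The heat shock chaperones stand at 1.01 to 1.46 and B cell genes at -1.07 to -0.74 in Zmpste24-/- ventilated arrays; wild type ventilated array 2 is the lowest of its group for heat shock chaperones (-0.45) and array 1 the highest for smooth muscle genes (0.39).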

How the data were processed

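RNA of whole lung was hybridised to 1-colour Affymetrix arrays, 1 array per mouse. The authors deposited log2 values for 41345 probes, made with RMA per the submitters' processing notes, which also name limma, without versions. Values ran from 2.41 to 13.47. Of the probes 23521 had 1 gene symbol, 1814 had several and 16010 had none; 23328 of the first matched a RefSeq gene and 193 did not. A gene was read from its single-symbol probe with the highest mean over all 12 arrays (1082 genes had more than 1 probe), which left 22180 genes.

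A model of the 4 group means was fitted over the 12 arrays in R 4.3.3 by limma 3.58.1 (lmFit, then eBayes; 8 residual and 5.51 prior degrees of freedom), with Benjamini-Hochberg adjustment across the 22180 genes and a threshold of 0.05. Errors given with ± are the SE of the fit. With 3 arrays a group, an exact permutation test could not go below 0.1, and the number of arrays limits the precision. The p-values measure the spread between these mice.

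Genes were named by rule: Zmpste24 and Lmna, the 15 largest increases and the 15 largest decreases among genes that passed without overlap between the genotypes, the 10 smallest adjusted p-values of the interaction, and members of the gene lists. Predicted genes, small RNAs, receptor segments, odour and taste receptors and pseudogenes were left out of the ranking (311 passing genes). The microRNA and small nucleolar RNA genes and the genes under other observations were chosen after their values were seen. Zfp36 was named outside the rule and the lists. The comparison and the gene lists were chosen with earlier results of these data known, and list counts are descriptions. Alternatives were the ventilated or intact arrays alone, the replicate number as a block, filters on low genes, subtraction of array medians, quantile normalization, trended and robust variances, array weights, the mean of a gene's probes, and leaving out each array. The fits were tested on simulated data. Tables were handled in Python 3.11.15 with pandas 2.3.3 and figures drawn with matplotlib 3.10.9.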

Additional observations from a re-analysis of the deposited data

Results flagged for a closer look

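The genotype difference in ventilated lungs departed from that in intact lungs (interaction, log2, limma adjusted p under 0.05 over all genes) in 29 of the genes named by rule or held in the lists. Each value is the difference in ventilated lungs minus that in intact lungs, with 3 mice in each of the 4 groups.

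Among early response genes and their kinase regulators the interaction was 2.86 for Fosb, 2.44 for Nr4a1, 1.31 for Ier2, 1.28 for Jun, 1.10 for Ier5, 1.15 for Dusp5 and 1.49 for Btg2. Heat shock and stress translation genes gave 2.14 for Dnajb1, 1.17 for Chordc1, 0.97 for Bag3, 1.08 for Ppp1r15a and 0.62 for Ddit3. Of signalling and inflammatory genes, Ccl3 stood at 2.69, Adm at 2.26, Hbegf at 1.32, Mmp19 at 1.04, Nfkbiz at 0.85 and Sgk1 at 0.76. Clock genes gave 2.63 for Arntl and 1.48 for Nfil3. The remaining positive values were 1.88 for Lonrf3, 1.68 for Foxq1, 1.63 for Frat2, 1.18 for Ahr, 1.17 for Map2k3os, 0.99 for Brd2, 0.89 for Ccnl1 and 0.84 for Tcf21. The proteoglycan gene Aspn, at -1.16, was the negative one.

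The part of single arrays in these values was not tested gene by gene beyond the 10 genes of the interaction rule.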

How the results depend on the processing

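Counts of genes passing were 1369 (without wild type ventilated array 2) to 2510 (without wild type ventilated array 1) for the ventilated comparison when single arrays were left out, 628 to 1093 for the higher genes, 735 to 1517 for the lower genes, and 646 to 1483 for the intact comparison. Under the other alternatives the ventilated count ran from 2254 to 3239. Interaction genes numbered 8 to 118 without single arrays, 43 with the replicate block, 152 without genes under the median, 26 with quantile normalization, 112 with trended and robust variances and 164 with array weights, against 70. Passing list members numbered 243 to 334 without single arrays, against 319. Of the 30 ranked genes 26 to 30 kept their call under any one alternative, and none reversed. Array medians subtracted gave 1528 higher and 973 lower genes (61.1% higher, against 43.7%) and moved the median of all genes to 0.061, from 0.005; quantile normalization gave 49.4% higher.

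Replicate numbers recur in every group. Deviations of the 18 same-numbered pairs correlated between -0.152 and 0.153, so the numbers were not taken to pair the mice. With the number as a block 2315 genes passed in ventilated lungs and 1358 in intact lungs. Genes whose values lay near or below the array medians carry little signal over background, and their differences are the least precise.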

Other observations

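Some differences outside the lists had uneven intact values. Nnt, the mitochondrial transhydrogenase gene, stood at 8.35, 8.4 and 8.19 in ventilated wild type and at 7.12, 6.94 and 7.13 in ventilated Zmpste24-/- lungs (-1.25 ± 0.14, limma adjusted p = 0.000166). In intact lungs it was at 7.78, 8.35 and 8.36 against 7.42, 7.47 and 7.29. Wild type intact array 1 was thus the lowest of the wild type arrays.

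Plac9a was at 7.99, 8.24 and 7.89 in ventilated wild type and at 9.45, 9.34 and 9.21 in ventilated Zmpste24-/- lungs, and at 9.63, 8.39 and 8.35 in intact wild type and 9.74, 9.63 and 9.70 in intact Zmpste24-/- lungs. Wild type intact array 1 again lay apart from the other wild type arrays and close to the Zmpste24-/- ones. The pseudogene Pisd-ps3 was at 9.20, 9.61 and 8.86 against 6.93, 6.73 and 6.75 in ventilated lungs (-2.42 ± 0.30) and at 7.72, 9.11 and 7.6 against 7.27, 7.22 and 7.42 in intact lungs. Strain differences between mice were not analysed here.

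Of the 50 genes nearest to Zmpste24 on its chromosome, 25 on each side by order, 3 passed in ventilated lungs (6%, against 10.8% of all genes): Foxo6 at 0.47, Exo5 at -0.54 and D830031N03Rik at -0.52.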
